A study of Mus musculus with 3 samples.

Results

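The Nodal signalling genes examined here are the ligand Nodal, the secreted antagonists Lefty1 and Lefty2, the coreceptor Tdgf1, also called Cripto, and the related ligand Gdf3. They were found on the arrays as the non-control probes whose transcript accession maps to one of these 5 symbols in a mouse RefSeq gene table. Of the 5 genes listed, 4 had a probe, each with 1 probe, and all 4 passed the filter on dim signal, out of 13294 named genes and 21552 features tested. Nodal itself matched 0 probes, so its level was not measured here, and the account below is of its antagonists, coreceptor and related ligand.

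Nodal is a secreted factor of the TGF-beta family that binds activin receptors together with a membrane coreceptor of the Cripto family and acts through phosphorylated Smad2 and Smad3. Among its best known direct targets are its own inhibitors, Lefty1 and Lefty2, which bind Nodal or its coreceptor and shut the signal down in a negative feedback loop. In the early embryo the pathway patterns mesoderm, endoderm and the left side of the body, and in the fetal testis it has been described in germ cells during the time when they still express pluripotency genes.

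Total RNA of whole male gonads from mouse embryos at embryonic day 14.5, of a mouse line that the labels call MCH, was hybridised to 6 one-colour Agilent arrays. The 3 genotypes, with 2 arrays each, were the double knockout (Cyp26b1-/- and Stra8-/-), the Cyp26b1 knockout (Cyp26b1-/- with both wild-type alleles of Stra8) and the wild type (wild-type alleles of both genes). Cyp26b1 encodes an enzyme that breaks down retinoic acid, and Stra8 encodes a factor that germ cells need to enter meiosis. The knockout alleles are given as genotypes only, the duplicates are called biological, and the sources used here do not tell whether embryos were pooled for an array. All p-values therefore measure no more than the spread among 6 arrays.

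Each level below is the log2 processed signal less the array's own 75th percentile, so that 0 is the upper quartile of an array. They rank a gene across arrays and not one gene against another, because every probe has its own brightness. The number of arrays, 2 a genotype, limits the precision of every value.

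The labels could not be borne out with the targeted genes. The Cyp26b1 probe read 4.11 and 3.91 on the double knockout arrays, 4.27 and 3.83 on the Cyp26b1 knockout arrays and 4.03 and 3.83 on the wild-type arrays, with no loss in either mutant. The Stra8 probe read 5.98 and 6.14 on the double knockout arrays, 7.19 and 7.04 on the Cyp26b1 knockout arrays and 3.73 and 2.41 on the wild-type arrays. The position of either probe relative to its deletion is unknown here, and a probe beyond the deletion checks nothing. Genotypes below are therefore named as the arrays were labelled, which each stated direction rests on.

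The Cyp26b1 knockout arrays stood apart from the others in a way that touches every comparison with them. Each genotype had a slide of its own, and the Cyp26b1 knockout slide was scanned on another day than the other 2 slides, so slide and genotype cannot be told apart. In 4031 genes with at least 2 probes well above background on all arrays, the brightest and next brightest probe gave log2 differences more than 1 apart in 18.7% of genes for Cyp26b1 knockout minus wild type. The same share was 17.3% for double knockout minus Cyp26b1 knockout and 0.893% for double knockout minus wild type, whose slides were scanned on the same day. Between the 2 arrays of 1 genotype it lay between 0.447% and 0.595%. The members have a single probe each, so none of their values could be set beside a second probe.

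Lefty1, Lefty2 and Gdf3 were higher on the Cyp26b1 knockout arrays than on the wild-type arrays, and Tdgf1 did not pass the test. On the double knockout arrays, Lefty1 and Lefty2 were lower than on the Cyp26b1 knockout arrays. Against wild type, none of the 4 passed the test in the double knockout. Lefty1 had the largest difference of the 4, with rank 29 among 21552 features by absolute difference for Cyp26b1 knockout minus wild type. The 2 comparisons with wild type share the wild-type arrays, and the 2 comparisons with the Cyp26b1 knockout share its arrays, so these results are not independent of each other.

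These counts have to be read against how many features were called in all. For Cyp26b1 knockout minus wild type, limma's test with Benjamini-Hochberg adjustment at a threshold of 0.05 called 51.2% of all 21552 features, 21.3% higher and 29.9% lower. Of the 4 members tested, 3 were called higher and 0 lower. In double knockout minus wild type it called 12% of features, 5.41% higher and 6.55% lower, and 0 of the 4 members, of which 1, Lefty1, had an unadjusted p below 0.05. In double knockout minus Cyp26b1 knockout it called 43.1% of features, 25.5% higher and 17.6% lower, with 0 members higher and 2 lower. With arrays scaled to their median, the calls that were higher made up 71.1% in place of 45.3% for double knockout minus wild type and 70.6% in place of 59.2% for double knockout minus Cyp26b1 knockout. That scaling moved the median of all features by 0.133 and 0.113 in these comparisons.

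**Figure D1:**
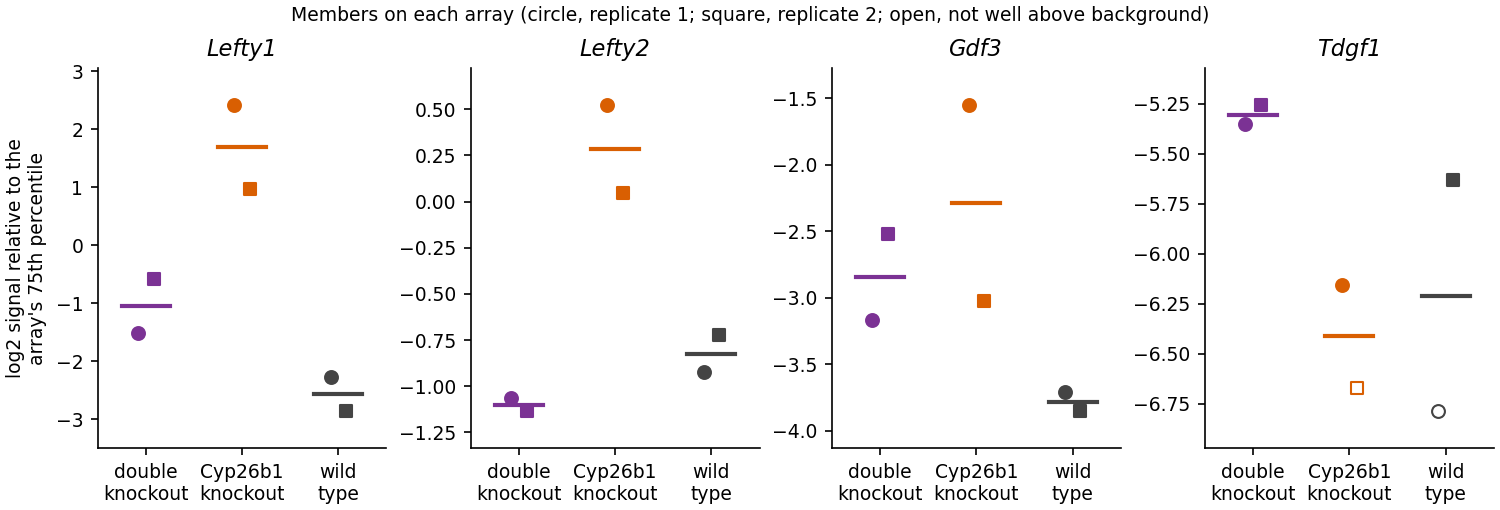
Level of each member on each array, in log2 units above or below the array's 75th percentile, with the double knockout, Cyp26b1 knockout and wild type from left to right. Points are arrays, bars are means of the 2 arrays, and each panel has its own vertical range. Both Cyp26b1 knockout arrays lie above the other 4 arrays for Lefty1 (0.97 and 2.41) and for Lefty2 (0.05 and 0.52).

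The antagonist Lefty1 read -1.51 and -0.59 on the double knockout arrays, 2.41 and 0.97 on the Cyp26b1 knockout arrays and -2.28 and -2.87 on the wild-type arrays. All 6 arrays were well above background, and the processed signals behind these levels were 425 and 929, then 5185 and 2155, then 260 and 205. The 3 genotypes did not overlap, with the Cyp26b1 knockout highest, the double knockout next and wild type lowest.

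For Cyp26b1 knockout minus wild type, the mean Lefty1 level was 1.69 ± 1.02 against -2.57 ± 0.41 (SD, n = 2 each), a difference of 4.27 ± 0.48 (SE) or 19.2-fold (limma, adjusted p = 0.000495). The 95% interval of the fold ran from 8.82 to 42.0. The double knockout averaged -1.05 ± 0.65 (SD, n = 2), which was lower than the Cyp26b1 knockout by 6.69-fold (log2 difference -2.74 ± 0.48, limma, adjusted p = 0.0041). Between these mutants the 95% interval of the fold ran from 3.07 to 14.6. Both calls held in all 15 settings tested. Without Cyp26b1 knockout replicate 1 the log2 difference was 3.55 for Cyp26b1 knockout minus wild type and -2.02 for double knockout minus Cyp26b1 knockout, and without its replicate 2 these were 4.99 and -3.46.

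Against wild type, the double knockout difference of Lefty1 was 1.52 ± 0.48, or 2.87-fold with a 95% interval from 1.32 to 6.27, and did not pass the test (limma, adjusted p = 0.0834). Without either of the Cyp26b1 knockout arrays it passed, at adjusted p = 0.0375 without replicate 1 and 0.0365 without replicate 2, with the difference still 1.52. In a fit of the double knockout and wild-type arrays alone it also passed (limma, adjusted p = 0.0394). With normexp background correction on all spots it passed with a smaller difference of 0.79 (limma, adjusted p = 0.00663). These were the 4 of 15 settings in which it passed. Without a filter on dim probes adjusted p was 0.166, and without an intensity trend 0.157 (limma). Leaving out a double knockout or wild-type array gave differences from 1.06 to 1.98. In the order of levels, the Cyp26b1 knockout was called apart from each other genotype, while the step between the double knockout and wild type was not called with all 6 arrays.

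None of the 4031 genes with 2 usable probes had a gap between probes as large as the Lefty1 difference of 4.27 for Cyp26b1 knockout minus wild type. A gap of at least the Lefty1 size was seen in 4 genes for double knockout minus Cyp26b1 knockout and in 7 for double knockout minus wild type.

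The second antagonist, Lefty2, read -1.06 and -1.14 on the double knockout arrays, 0.52 and 0.05 on the Cyp26b1 knockout arrays and -0.92 and -0.72 on the wild-type arrays. It was well above background on all 6 arrays. The 3 genotypes did not overlap here either, but the double knockout was the lowest.

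Lefty2 rose by 1.11 ± 0.16 in Cyp26b1 knockout against wild-type gonads, which is 2.16-fold with a 95% interval from 1.65 to 2.82 (limma, adjusted p = 0.00144). In double knockout gonads it was 2.61-fold lower than in Cyp26b1 knockout gonads, with a log2 difference of -1.38 ± 0.16 and a 95% interval of the fold from 2.0 to 3.41 (limma, adjusted p = 0.00106). These 2 calls held in all 15 settings tested. Double knockout and wild type differed by -0.27 ± 0.16, with a 95% interval from -0.66 to 0.11 (limma, adjusted p = 0.309), so a fall of up to 1.58-fold lies within the interval. Gaps between 2 probes of a gene were at least as large as the Lefty2 difference in 14.8% of the 4031 genes for Cyp26b1 knockout minus wild type and in 7.17% for double knockout minus Cyp26b1 knockout. Lefty1 and Lefty2 are close relatives in sequence, and whether either probe also binds the other transcript was not tested.

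Gdf3, a TGF-beta family ligand that in mouse embryos acts in the Nodal pathway, read -3.17 and -2.52 on the double knockout arrays, -1.55 and -3.03 on the Cyp26b1 knockout arrays and -3.71 and -3.86 on the wild-type arrays. All 6 arrays were well above background. The arrays of both mutants lay above both wild-type arrays, while the 2 mutants overlapped.

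The Gdf3 difference for Cyp26b1 knockout minus wild type was 1.49 ± 0.45, or 2.82-fold with a 95% interval from 1.37 to 5.80, and it passed the test (limma, adjusted p = 0.026). This call rested on single arrays: it was lost without Cyp26b1 knockout replicate 1 (0.76, adjusted p = 0.0867), without wild-type replicate 1 (1.56, adjusted p = 0.0833) and without wild-type replicate 2 (1.42, adjusted p = 0.106). Without Cyp26b1 knockout replicate 2 it was 2.23. The call was also lost with normexp background correction on all spots, where the difference was 0.23 (limma, adjusted p = 0.756). For Cyp26b1 knockout minus wild type, 6% of 4031 genes with 2 usable probes had a gap between probes of at least the Gdf3 size. Double knockout minus wild type gave 0.94 ± 0.45 (limma, adjusted p = 0.208), with a 95% interval from -0.10 to 1.98. Double knockout minus Cyp26b1 knockout gave -0.55 ± 0.45 (limma, adjusted p = 0.347), and this difference was 0.18 without Cyp26b1 knockout replicate 1 and -1.29, past the test at adjusted p = 0.0201, without replicate 2.

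Tdgf1, the coreceptor that Nodal and Gdf3 use, had a faint probe signal, near the limit of detection. It read -5.35 and -5.26 on the double knockout arrays, -6.16 and -6.67 on the Cyp26b1 knockout arrays and -6.79 and -5.63 on the wild-type arrays. Its signal cleared background on both double knockout arrays, on 1 of the 2 Cyp26b1 knockout arrays and on 1 of the 2 wild-type arrays.

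The 2 wild-type readings of Tdgf1, the lower of which was not well above background, enclosed both Cyp26b1 knockout readings, while both double knockout arrays lay above the other 4. No Tdgf1 comparison passed the test, with differences of -0.20 ± 0.42 for Cyp26b1 knockout minus wild type (limma, adjusted p = 0.715), 0.90 ± 0.42 for double knockout minus wild type (0.205) and 1.11 ± 0.42 for double knockout minus Cyp26b1 knockout (0.0711). The last passed the test with median scaling (1.22, adjusted p = 0.0459), in a fit of those 2 genotypes alone (adjusted p = 0.0386) and without wild-type replicate 1 (0.0382) or 2 (0.043). It was 0.19 with normexp without marked spots (limma, adjusted p = 0.251) and 0.77 with normexp on all spots (0.961). Since 1 array of the Cyp26b1 knockout and 1 of wild type did not clear background, no fold is given for Tdgf1 between these genotypes.

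**Figure D2:**
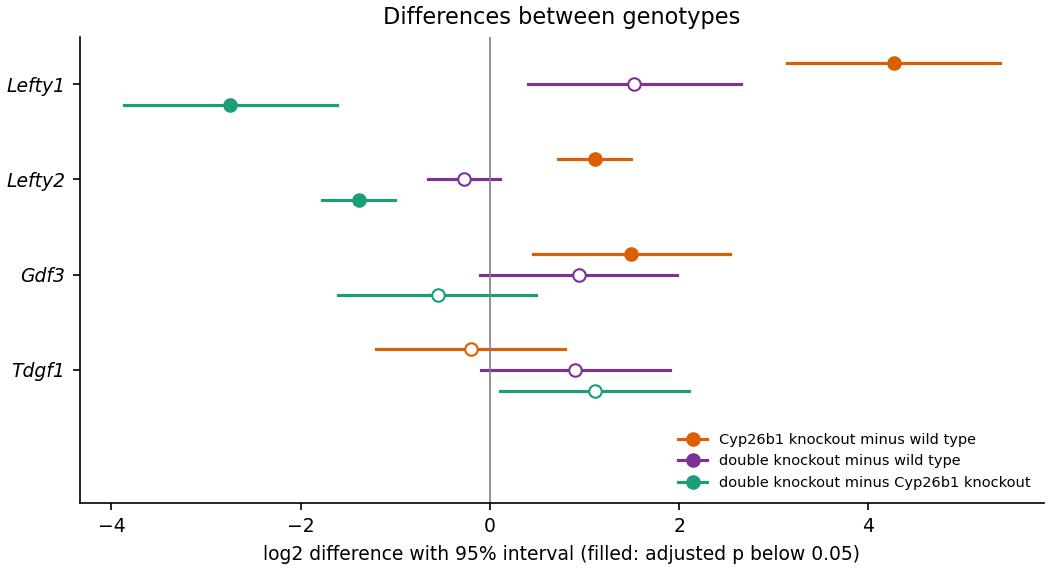
Log2 differences of the 4 members in the 3 comparisons, with 95% intervals of the limma fit, and filled points where the adjusted p was below 0.05. The Lefty1 and Lefty2 intervals lie above 0 for Cyp26b1 knockout minus wild type and below 0 for double knockout minus Cyp26b1 knockout, and all 3 Tdgf1 points are open.

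In the authors' deposited table, which holds 1 value per genotype on a linear scale of unknown centring and scaling between arrays, Lefty1 stood at 0.943 for the double knockout, 7.79 for the Cyp26b1 knockout and 0.377 for wild type. The authors' deposited table gave Lefty2 at 0.716, 2.31 and 0.995, and Gdf3 at 1.10, 2.0 and 0.660, in the same order of genotypes. Its order of the genotypes was the same as in the levels above for these 3 genes. The differences between its log2 columns matched those used here across 18971 features with a constant shift, which was 0.103 for Cyp26b1 knockout minus wild type, -0.201 for double knockout minus wild type and -0.304 for double knockout minus Cyp26b1 knockout.

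The 2 arrays of the Cyp26b1 knockout differed more for Lefty1 and Gdf3 than for most features. Replicate 1 was above replicate 2 by 1.44 on the log2 scale for Lefty1 and by 1.48 for Gdf3, and only 0.608% and 0.548% of all features had a larger absolute difference between these arrays. Lefty2 was higher in replicate 1 by 0.48 and Tdgf1 by 0.51, so all 4 members were higher in the same array. In the double knockout, replicate 1 was below replicate 2 for Lefty1 (-0.92) and Gdf3 (-0.65), whereas Lefty2 (0.07) and Tdgf1 (-0.10) were close together.

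The pluripotency factors Pou5f1, Sox2 and Nanog, transcription factors that early male germ cells also express, split the same arrays. Their median difference between replicates was 1.24 in the Cyp26b1 knockout, with 3 of 3 higher in replicate 1, and -0.75 in the double knockout, with 0 of 3 higher in replicate 1. The 7 germ cell markers had medians of 0.29, with 6 of 7 higher in replicate 1, and -0.32, with 1 of 7 higher in replicate 1. Sertoli cell markers had medians of 0.18 and 0.15, and all features tested had medians of 0.01 in both genotypes. The 4 Leydig cell markers split these arrays the other way. Their medians were -0.44, with 0 of 4 higher in replicate 1, and 0.25, with 4 of 4 higher in replicate 1. The part of germ cell or other cell content in the differences between replicates was not tested.

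**Figure D3:**
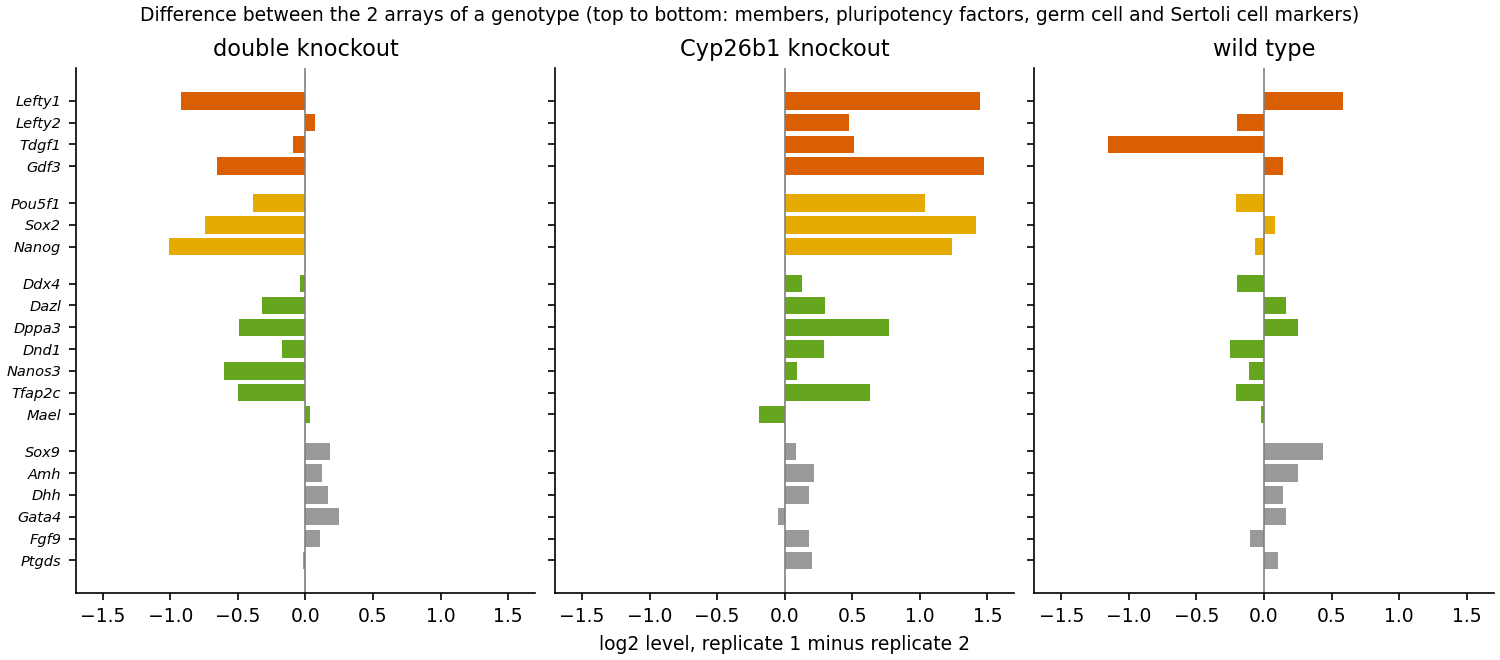
Level in replicate 1 minus replicate 2 within each genotype, on the log2 scale, for the members, the pluripotency factors, the germ cell markers and the Sertoli cell markers from top to bottom. In the Cyp26b1 knockout, Lefty1 (1.44), Gdf3 (1.48) and all 3 pluripotency factors point to replicate 1, and in the double knockout Lefty1 (-0.92), Gdf3 (-0.65) and the pluripotency factors point to replicate 2.

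Gonads hold germ cells, Sertoli cells, Leydig cells, endothelium and macrophages, and in a bulk sample fewer cells of a type and less RNA per cell cannot be told apart. All 7 germ cell markers were well above background on every array. Their summed level, on the linear scale relative to the upper quartile of an array, was 75.1 and 86.1 on the double knockout arrays, 70.0 and 56.8 on the Cyp26b1 knockout arrays and 94.9 and 95.2 on the wild-type arrays. For Cyp26b1 knockout minus wild type, 1 of 7 germ cell markers was called higher and 5 lower, among them Dnd1 (-2.01 ± 0.13) and Mael (-1.07 ± 0.09), which act in germ cell survival and in transposon silencing. Set against the Cyp26b1 knockout, the double knockout had 4 of 7 called higher, with Nanos3 at 1.95 ± 0.19 and Dnd1 at 1.04 ± 0.13. The germ cell markers that fell moved in the opposite direction to Lefty1, Lefty2 and Gdf3, and their part in the members' differences was not tested.

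The 6 Sertoli cell markers summed to 46.8 and 43.1 on the double knockout arrays, 45.1 and 39.9 on the Cyp26b1 knockout arrays and 47.2 and 42.5 on the wild-type arrays, with overlapping ranges. Single Sertoli cell markers did differ, with 2 called higher and 2 lower for Cyp26b1 knockout minus wild type, by the brightest probe of each gene. One called higher, Gata4 (0.53), had -0.32 on another probe well above background on all 6 arrays. Sox9, not called at 0.06, had 0.786 and 0.795 on other probes well above background on all 6 arrays. Double knockout minus wild type had 0 higher and 2 lower, and double knockout minus Cyp26b1 knockout had 2 higher and 1 lower. The 4 Leydig cell markers measured summed to 98.7 and 83.0, then 58.9 and 79.3, then 112 and 96.4 in the same order of genotypes, with 0 called higher and 3 lower for Cyp26b1 knockout minus wild type. One of these was Star, the carrier of cholesterol into mitochondria (-1.57 ± 0.15).

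The 4 endothelial markers summed to 5.92 and 5.25 on the double knockout arrays, 4.33 and 4.58 on the Cyp26b1 knockout arrays and 5.89 and 5.40 on the wild-type arrays, so the Cyp26b1 knockout was lowest. The single markers moved both ways: for Cyp26b1 knockout minus wild type 2 were called higher, with the adhesion receptor gene Pecam1 at 1.58 ± 0.15, and 2 lower, with the endothelial cadherin gene Cdh5 at -0.69 ± 0.13. For double knockout minus Cyp26b1 knockout 2 were called higher and 2 lower, with Cdh5 at 0.74 and Pecam1 at -1.27. The Cdh5 call against wild type was lost with normexp on all spots (-0.45, limma, adjusted p = 0.0615). Another Cdh5 probe, well above background on all 6 arrays, gave 1.04 and -0.79 in these 2 comparisons, so no direction is given for Cdh5. The summed level uses its brightest probe.

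The 3 macrophage markers measured summed to 1.06 and 0.947 on the double knockout arrays, 1.12 and 1.15 on the Cyp26b1 knockout arrays and 0.807 and 0.824 on the wild-type arrays, the same order of genotypes as for Lefty1. Of the 3, 2 were called higher for Cyp26b1 knockout minus wild type, the complement gene C1qa (0.67 ± 0.13) and the receptor gene Csf1r (0.66 ± 0.14), and both were lower for double knockout minus Cyp26b1 knockout (-0.42 and -0.41). With normexp on all spots C1qa and Csf1r lost these calls, at 0.09 and 0.23 for Cyp26b1 knockout minus wild type (limma, adjusted p = 0.867 and 0.667). Between the mutants the call of each was also lost with either other scaling and without either wild-type array. The third marker, Adgre1, differed by 0.01 for Cyp26b1 knockout minus wild type and was called higher for double knockout minus Cyp26b1 knockout (0.38). The part of endothelial and macrophage content in the members' differences was not tested.

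The 3 mesonephros and duct markers were faint, between 0.108 and 0.401, and the summed level on the wild-type arrays (0.116 and 0.383) spanned most of that range.

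Beyond the members, 53 further genes of the pathway were listed, of which 50 had a probe and 45 were tested. For Cyp26b1 knockout minus wild type, 5 of 45 were called higher and 17 lower, with a median difference of -0.06 beside -0.09 over all features. Of the same genes, 3 were higher and 6 lower for double knockout minus wild type, with a median of -0.00 beside -0.02 over all features. Between the mutants (double knockout minus Cyp26b1 knockout), 14 were higher and 6 lower, with a median of 0.15 beside 0.09. In either direction, 48.9%, 20% and 44.4% of the 45 were called in the 3 comparisons, beside 51.2%, 12% and 43.1% of all features. Where a gene has other probes, the brightest was used.

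Among the 8 other ligands tested that signal or modulate signalling through the Smad2 and Smad3 branch, 0 were called higher and 5 lower for Cyp26b1 knockout minus wild type, within a range from -0.67 to 0.31. Tgfb1, a secreted TGF-beta, fell by 0.45 ± 0.11 (limma, adjusted p = 0.0107), a call lost without wild-type replicate 1 (-0.40, 0.0781). The activin beta B subunit gene Inhbb had -0.57 ± 0.11 on its brightest probe, but its other probe gave 0.33, so no direction is given for it in this comparison. The same holds for the inhibin alpha subunit gene Inha, at -0.465 on its brightest probe and 0.16 on its other. Both genes are among the 5 counted as lower. In the double knockout against wild type, Inhbb was -0.53 and -0.92 by its 2 probes and Inha was -0.55 and -0.40, and these 2 were the only ligands called, both lower. Neither call held without double knockout replicate 2 or either wild-type array (adjusted p from 0.0668 to 0.184), nor did that of Inha without either Cyp26b1 knockout array (0.0508 and 0.0504). Tgfb3 was the only ligand called for double knockout minus Cyp26b1 knockout (0.37 ± 0.11, limma, adjusted p = 0.0329), and it was lost without either double knockout array (adjusted p = 0.114 and 0.088) or Cyp26b1 knockout replicate 1 (0.143). The calls of Tgfb1, Inhbb and Tgfb3 given here, and that of Inha for double knockout minus wild type, were all lost with normexp on all spots (limma, adjusted p from 0.21 to 0.773).

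Of 7 receptors and coreceptors tested, 1 was called higher and 3 lower for Cyp26b1 knockout minus wild type. The activin type II receptor gene Acvr2b read -0.49 and -0.46 on the double knockout arrays, 0.80 and 0.51 on the Cyp26b1 knockout arrays and -0.67 and -0.98 on the wild-type arrays, so the Cyp26b1 knockout stood above both others. It was higher by 1.48 ± 0.14 for Cyp26b1 knockout minus wild type (limma, adjusted p = 0.000285) and lower by -1.13 ± 0.14 for double knockout minus Cyp26b1 knockout (limma, adjusted p = 0.00126). Acvr1c, a type I receptor for Nodal, was not well above background on any array of either mutant. With the lowest signal well above background as the limit, its wild-type level was at least 2.37-fold above the Cyp26b1 knockout (limma, adjusted p = 0.00808). This Acvr1c call was lost with normexp on all spots (log2 difference -1.40, limma, adjusted p = 0.653) and with normexp without marked spots (-0.19, 0.203). The last value is smaller in size than the bound, which therefore holds only for the processed signal used here. Other Acvr1c probes, not well above background on any array, gave -1.55 and 0.79 for Cyp26b1 knockout minus wild type. In the double knockout against wild type, 0 of 7 receptors were called by limma, with 2 at an unadjusted p below 0.05. Tgfbr1, a type I TGF-beta receptor gene, was called for double knockout minus Cyp26b1 knockout (0.46 ± 0.11), but another, fainter probe gave -1.54, and the call was lost without double knockout replicate 2 (0.38, 0.0673) or Cyp26b1 knockout replicate 1 (0.37, 0.0577), and with normexp on all spots (0.43, 0.0991). Acvr1b, the type I receptor most tied to Nodal, was on the array and did not pass the filter on dim signal.

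The convertases Furin, Pcsk5 and Pcsk6 cleave the Nodal precursor. Only Furin matched a probe, and its differences of 0.24, 0.09 and -0.14 in the 3 comparisons did not pass the test. The first passed with quantile normalization (0.33, limma, adjusted p = 0.0416). For the 4 other antagonists tested, 1 was higher and 1 lower for Cyp26b1 knockout minus wild type. Fstl3, a secreted binder of activin, read -1.41 and -1.69 on the double knockout arrays, -0.70 and -0.63 on the Cyp26b1 knockout arrays and -2.78 and -2.86 on the wild-type arrays. The 3 genotypes were apart in all comparisons, at 2.15 ± 0.13 for Cyp26b1 knockout minus wild type, 1.27 ± 0.13 for double knockout minus wild type and -0.88 ± 0.13 for double knockout minus Cyp26b1 knockout (limma, adjusted p from 9.58e-05 to 0.00254). This is the same order of genotypes as for Lefty1. With normexp on all spots the Fstl3 difference was 0.47 for double knockout minus wild type (limma, adjusted p = 0.801) and was -0.72 for double knockout minus Cyp26b1 knockout (0.0878), so the double knockout was then called apart from neither. Its relative Fst, which binds activin too, fell by 1.73 ± 0.26 for Cyp26b1 knockout minus wild type (limma, adjusted p = 0.00156), the opposite direction, a call lost with normexp on all spots (-1.60, 0.29).

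Of 14 intracellular transducers and regulators, 1 was called higher and 5 lower for Cyp26b1 knockout minus wild type, and 7 higher and 2 lower for double knockout minus Cyp26b1 knockout. These counts rest on the brightest probe of each gene. In the first comparison Smurf1, called lower at -0.51, had 1.17 on another probe well above background on all arrays. Smad4, called lower at -0.32, kept its direction on its other probe (-0.95). Smad7, an inhibitory Smad that the pathway itself can induce, read 0.66 and 0.56 on the double knockout arrays, -0.39 and -0.47 on the Cyp26b1 knockout arrays and 1.41 and 1.39 on the wild-type arrays. It was called in every comparison, at -1.83 ± 0.09 for Cyp26b1 knockout minus wild type, -0.79 ± 0.09 for double knockout minus wild type and 1.04 ± 0.09 for double knockout minus Cyp26b1 knockout (limma, adjusted p from 5.9e-05 to 0.00309). The genotypes thus ran in the reverse order of Lefty1. Smad2, which carries the signal to the nucleus, was lower by -0.49 ± 0.08 for Cyp26b1 knockout minus wild type (limma, adjusted p = 0.00221) and higher by 0.56 ± 0.08 for double knockout minus Cyp26b1 knockout (0.00192). Both Smad2 calls were lost with normexp on all spots (-0.23, limma, adjusted p = 0.465, and 0.46, 0.0638). Smad3, its partner in carrying the signal, was chosen after its values were seen and went the other way. It was higher by 0.51 ± 0.09 for Cyp26b1 knockout minus wild type (limma, adjusted p = 0.00292) and lower by -0.46 ± 0.09 for double knockout minus Cyp26b1 knockout (0.00607), with 0.95 and -0.54 by its other probe. The Smad3 call between the mutants was lost with normexp on all spots (-0.45, limma, adjusted p = 0.104).

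Of 8 embryonic target genes of Nodal tested, 2 were called higher and 3 lower in each comparison with wild type. Foxa2, an endoderm and node factor singled out after its values were seen, was higher by 1.40 ± 0.21 for Cyp26b1 knockout minus wild type (limma, adjusted p = 0.00158), but turned to -0.35 with normexp on all spots (0.806).

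Some other target genes went down. Fgf8, a secreted growth factor, was lower by -1.36 ± 0.17 for Cyp26b1 knockout minus wild type (limma, adjusted p = 0.00066). Lhx1, a homeobox gene of the early node and kidney, was lower by -1.94 ± 0.22 for double knockout minus wild type (limma, adjusted p = 0.00333) and by -1.14 ± 0.22 for double knockout minus Cyp26b1 knockout (0.00625). Both Lhx1 calls were lost with normexp on all spots (-1.24, limma, adjusted p = 0.629, and -0.23, 0.961). Gsc, a homeobox gene of the organizer, was singled out after its values were seen: it was not well above background on any array of either mutant and read -3.54 and -3.41 on the wild-type arrays. With the lowest signal well above background as the limit, its wild-type level was at least 4.48-fold above the double knockout (limma, adjusted p = 0.0123). It was at least 7.14-fold above the Cyp26b1 knockout (limma, adjusted p = 0.000673). With normexp on all spots the log2 differences from wild type were -1.26 and -1.95, smaller in size than these bounds. The bounds therefore hold only for the processed signal used here. Both Gsc calls were lost with normexp on all spots (limma, adjusted p = 0.899 and 0.547), and the first also without either wild-type array (0.0768 and 0.0962). Sox17, an endoderm factor, was called for double knockout minus Cyp26b1 knockout (0.49 ± 0.09), but a second probe well above background gave -0.16. For double knockout minus wild type, these 2 Sox17 probes were both higher, at 0.595 and 0.78. Another Sox17 probe, not well above background on any array, gave -0.09 there.

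Of the 3 pluripotency factors, 0 passed limma's test in any comparison with all arrays and the 75th percentile scaling, and 1, Sox2 for Cyp26b1 knockout minus wild type, had an unadjusted p below 0.05. Sox2 read -1.08 and -0.34 on the double knockout arrays, 0.50 and -0.92 on the Cyp26b1 knockout arrays and -1.25 and -1.33 on the wild-type arrays. Its difference for Cyp26b1 knockout minus wild type was 1.08 ± 0.43 (limma, adjusted p = 0.0699), and it passed without Cyp26b1 knockout replicate 2 (1.78, adjusted p = 0.00543). Sox2 passed too with normexp, on all spots (0.80, limma, adjusted p = 0.00646) or without marked ones (1.10, 0.0381). Nanog differed by 0.93 ± 0.44 (limma, adjusted p = 0.115) and passed without the same array (1.56, 0.0231). The difference of Pou5f1 was -0.00 with all arrays. Without that array all 3 also passed for double knockout minus Cyp26b1 knockout, at -1.21 for Sox2, -1.56 for Nanog and -0.70 for Pou5f1 (limma, adjusted p from 0.0243 to 0.0291).

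**Figure D4:**
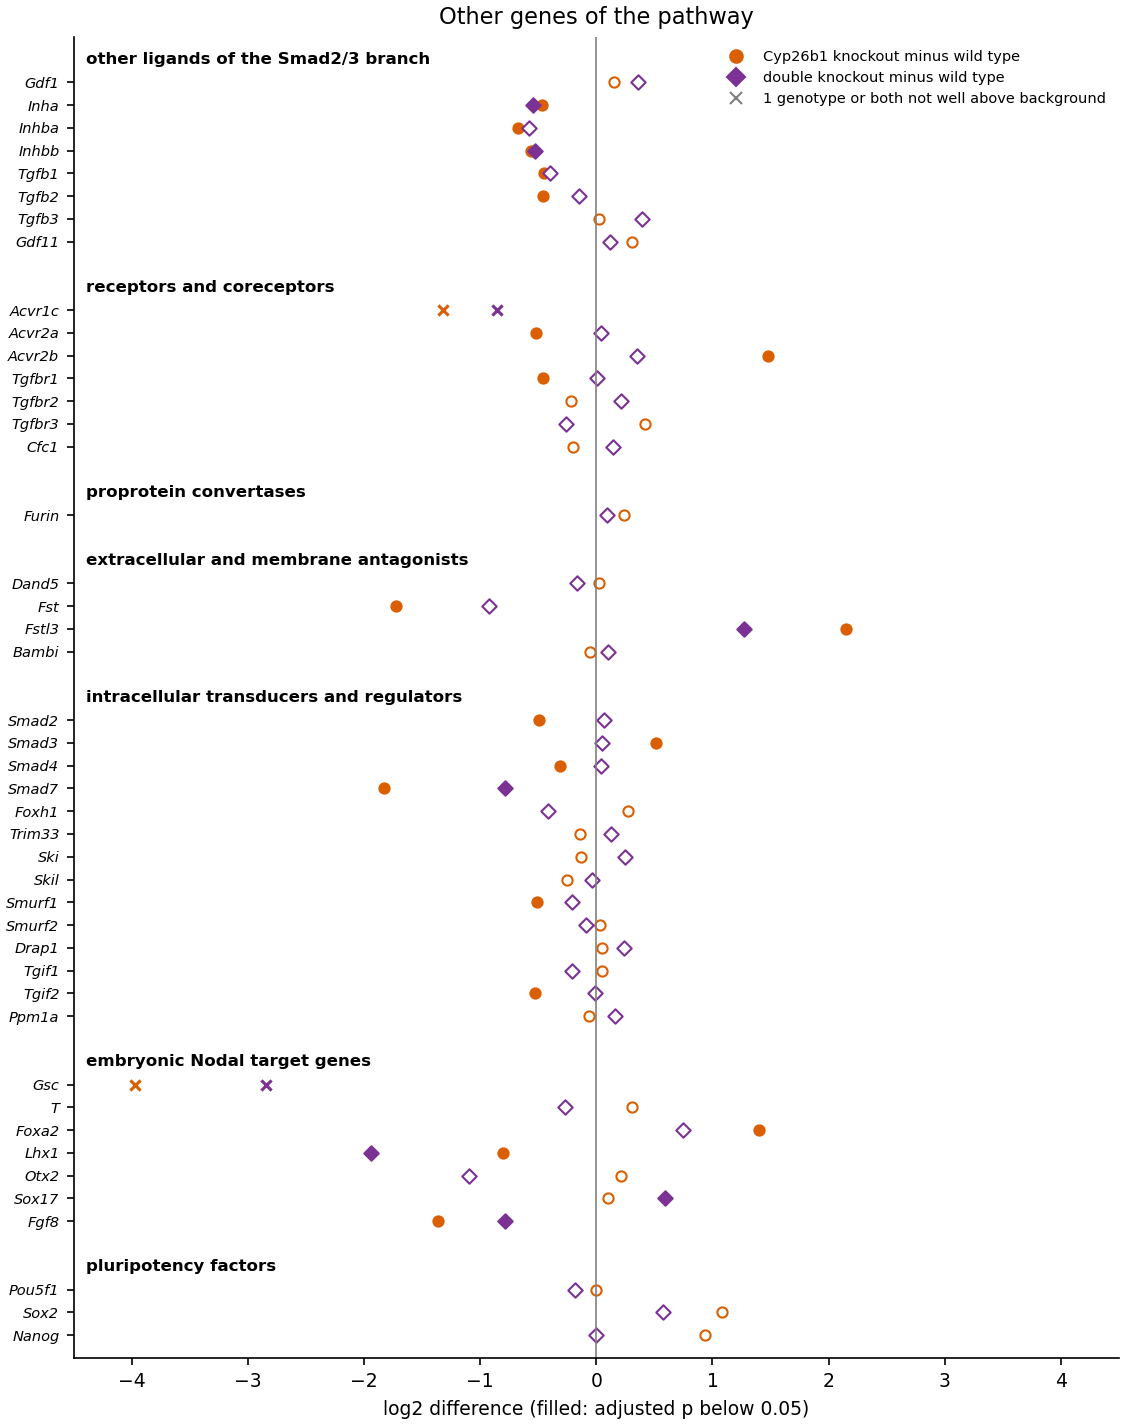
Log2 differences against wild type of other pathway genes tested, grouped by role, for the Cyp26b1 knockout (circles) and the double knockout (diamonds), filled where the adjusted p was below 0.05. Crosses mark genes not well above background in the mutant, for which only a bound on the fold holds. Tested genes that are not reported here are left out of the figure. Among the genes drawn, Fstl3 (2.15 and 1.27) lies furthest to the right and Smad7 (-1.83 and -0.79) among those furthest to the left.

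The genes whose 6 array levels ran closest to each member were found by the root mean square distance between profiles centred on their own mean, among 12294 named genes for Lefty1, Lefty2 and Gdf3 and 12746 for Tdgf1. The genes nearest to Lefty1 were Sohlh2 (distance 0.58), Timmdc1 (0.61) and Rhox6 (0.69), where Lefty1 itself spanned 5.28. Sohlh2, a transcription factor of germ cells, had differences of 3.97 for Cyp26b1 knockout minus wild type and 2.37 for double knockout minus wild type. The choice of genes by likeness to a member fixes the direction of their differences, so these are given as a description with no test. Nearest to Lefty2 were Aven (0.09), Fubp1 (0.09) and Rara (0.10), the last a retinoic acid receptor gene, over a Lefty2 span of 1.66. Their differences for Cyp26b1 knockout minus wild type were 1.11, 1.19 and 1.21, against 1.11 for Lefty2, and the one of Rara was -0.44 with normexp on all spots.

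Nearest to Gdf3 were Sox2 (0.19), Rhox2a (0.19) and Gal3st1 (0.30), over a span of 2.30. Rhox2a, a homeobox gene of a reproductive cluster, had a difference of 1.61 for Cyp26b1 knockout minus wild type. Nearest to the faint Tdgf1 were Naip5 (0.22), Grm3 (0.23) and Cda (0.25), over a span of 1.53. These distances describe 6 arrays of 3 genotypes, and many genes share a profile that separates the Cyp26b1 knockout from the rest.

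Lefty2 and Lefty1 lie close together in the protein-coding gene order of the RefSeq table (assembly GRCm38.p6), so genes around the members were examined, by a rule added after the members' values were seen. For Cyp26b1 knockout minus wild type, in which Lefty2 and Lefty1 rose, Sde2, next to Lefty2, was lower by -0.93 ± 0.11 (limma, adjusted p = 0.000682), and Tmem63a, next to Lefty1, was higher by 0.28 ± 0.09 (0.0298), a call lost without Cyp26b1 knockout replicate 1 (0.24, 0.104) or either wild-type array (0.26, 0.143 and 0.31, 0.0906). Farther out, Acbd3 was lower by -0.45 ± 0.09 (limma, adjusted p = 0.00505). Around Gdf3, Apobec1 on one side was lower by -0.99 ± 0.18 (limma, adjusted p = 0.00339), and the germ cell gene Dppa3 on the other had -0.44 ± 0.26 (0.194), or -0.83, past the test at 0.0241, without Cyp26b1 knockout replicate 1. Beyond Dppa3 and Nanog, the glucose transporter gene Slc2a3 was lower by -0.67 ± 0.13 (limma, adjusted p = 0.00436). The calls of Tmem63a, Acbd3 and Apobec1 were lost with normexp on all spots (limma, adjusted p from 0.133 to 0.473).

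The arrays of the 2 genotypes did not overlap for 3 of the 4 members for Cyp26b1 knockout minus wild type, where the same held for 78% of all features. In the double knockout against wild type it held for 4 of 4 members and 62.2% of features, and for double knockout minus Cyp26b1 knockout for 3 of 4 and 71.8%. With 2 arrays a genotype, this separation is common among all features and says little of the members.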

How the data were processed

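For every array the authors deposited its scanner output, in which the processed signal is a spot intensity on a linear scale, background-subtracted per the file headers. They also deposited a value table that behaved as a linear ratio with 1 column per genotype. The scanner software was Agilent Feature Extraction, as 9.5 per the submitters' processing notes and as 9.5.3.1 per the file headers. Here, log2 intensity minus the 75th percentile of each array was used, without control spots and spots marked as outliers, averaged per probe, and 25 probes were dropped. Accessions were matched to RefSeq (GRCm38.p6): of 41174 probes, 23374 had 1 symbol, 0 several and 17800 none. Each gene was its brightest probe. The test, for features whose signal cleared background on both arrays of some genotype, was limma 3.58.1 under R 4.3.3 (1 fit, intensity trend, 3 residual and 4.35 prior degrees of freedom), two-sided, with Benjamini-Hochberg adjustment over all 21552 features. Bounds set the bright mean against the lowest signal well above background.

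Alternatives were other scalings, the value table, normexp (offset 50) on median signals, since mean signals were not used here, other filters, no trend, 2 genotypes only, a replicate term and leaving out each array. For a few genes named in the text these were run after their values were seen. Named genes were the members, both targeted genes, up to 2 called genes with the smallest adjusted p per list and comparison (or 1 if none), and the 3 nearest profiles of each member. Results of most other cell type marker genes taken by that rule are given as list counts or sums only, and some genes that the rules take are not reported here. The members and lists were chosen with earlier results of these data known.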

Additional observations from a re-analysis of the deposited data

How the results depend on the processing

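The calls of Lefty1 and Lefty2 in both comparisons with the Cyp26b1 knockout held in all 15 settings tested, with Lefty1 from 3.28 to 4.99 and Lefty2 from 0.87 to 1.35 for Cyp26b1 knockout minus wild type. Lefty2 for double knockout minus Cyp26b1 knockout was -1.69 in the authors' deposited table. Gdf3 for Cyp26b1 knockout minus wild type missed the threshold at 1.49 without a filter on dim probes (adjusted p = 0.0598) or without an intensity trend (0.0578) and at 0.23 with normexp on all spots, and ranged from 0.76 to 2.23 when arrays were left out. Gdf3 for double knockout minus Cyp26b1 knockout then ranged from -1.29 to 0.18. Lefty1 for double knockout minus wild type passed at 0.79 with normexp on all spots and at 1.52 with 2 genotypes only, and ranged from 1.06 to 1.98 when arrays were left out. Tdgf1 for double knockout minus Cyp26b1 knockout passed at 1.22 with median scaling and at 1.11 with 2 genotypes only, was 0.19 with normexp without marked spots and 0.77 with normexp on all spots (adjusted p = 0.251 and 0.961), and ranged from 0.85 to 1.36 when arrays were left out. Tdgf1 turned to -0.43 for double knockout minus wild type with normexp on all spots. For Cyp26b1 knockout minus wild type it was -1.20 with that setting and turned to 0.08 with normexp without marked spots, and it ranged from -0.78 to 0.38 when arrays were left out. Normexp changed how dim probes are treated, and the cause of the changes was not tested.

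Features called higher and lower for Cyp26b1 knockout minus wild type numbered 4597 and 6439 with the main settings and 1619 and 1972 with normexp on all spots. When arrays were left out, those called higher numbered 3061 to 4585, the fewest without wild-type replicate 2. For double knockout minus wild type they numbered 1167 and 1411, against 309 and 207 with normexp on all spots and 743 and 821 without a filter. Those called higher were 2450 with median scaling and 772 without a trend. When arrays were left out they ranged from 271 to 1286 higher and from 259 to 1532 lower, the fewest without wild-type replicate 2. Between the mutants (double knockout minus Cyp26b1 knockout) they numbered 5494 and 3788, against 1550 and 1059 with normexp on all spots, with 10353 higher without a filter.

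Among 73 values of other named genes, normexp on all spots ended 29 calls without a change of sign and the remaining settings between 0 and 10 each. Signs turned only where the main value missed the threshold, apart from Rara (-0.44), Gal3st1 (-0.73) and Foxa2 (-0.35) with normexp on all spots, whose calls ended too. Pou5f1 for Cyp26b1 knockout minus wild type was 0.02 with median scaling, 0.07 with quantile normalization, 0.15 with normexp on all spots and when arrays were left out -0.52 to 0.52. Nanog for Cyp26b1 knockout minus wild type was -0.05 with normexp on all spots. For double knockout minus wild type it was 0.13 with median scaling and with quantile normalization and 0.04 with normexp without marked spots. When arrays were left out, Nanog ranged from -0.50 to 0.50 for double knockout minus wild type, Furin from -0.03 to 0.21 and Pou5f1 from -0.38 to 0.00. Then Pou5f1 ranged from -0.70 to 0.33 and Sox2 from -1.21 to 0.21 for double knockout minus Cyp26b1 knockout.

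The replicate numbers of 2 arrays a genotype only name them, although same-numbered deviations correlated at 0.119 to 0.226 over 18971 features. With replicate number as a block, no call of a member changed, Furin for Cyp26b1 knockout minus wild type passed (0.24, adjusted p = 0.041), and the features called were 4805 higher and 6896 lower, 1361 and 1700, and 5968 and 4028 in the 3 comparisons. Slide as a block could not be fitted, because each slide held 1 genotype, and other probes of the members were not run, because each had 1 probe.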
